A study of Mus musculus with 12 samples.

Results

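Pancreatic islets of leptin-deficient ob/ob mice were set directly against islets of lean PPARγ2KO mice over all genes of the array. The comparison takes every array of its 2 classes, which is 6 of the 12 arrays of the series: 3 arrays of ob/ob islets (labelled OB, genotype OB KO) and 3 arrays of PPARγ2KO islets. The ob/ob mice lack leptin and keep PPARγ2, and the PPARγ2KO mice keep leptin and lack the γ2 isoform of PPARγ in all their tissues. Both factors therefore differ between the groups, and a difference between them cannot be assigned to leptin or to PPARγ2. The remaining arrays, 3 of wild-type (WT) islets and 3 of POKO islets (labelled DKO, lacking both), entered the fit for its estimate of the spread between arrays. They also took part in the normalization and in the choice of a probe for each gene. All mice had the C57BL/6 x Sv129 background and ate chow. The labels give their age as 4 weeks, whereas the paper describes female mice a week older. Islets were freed with collagenase, picked by hand and cultured overnight, and the RNA on an array came from the pooled islets of several mice, so that p values here measure the spread between pools.

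Beta cells of the islet make insulin, pack it into dense-core granules with granins and processing enzymes, and release it when glucose rises. In obesity the demand for insulin grows, and islets respond with more secretion and with more beta cells. Leptin, a hormone of adipose tissue, restrains appetite through its receptor, and its absence in ob/ob mice brings early obesity and insulin resistance. PPARγ is a nuclear receptor for fatty acids that works together with RXR. Its γ2 isoform is best known from fat cells, where it drives lipid storage, and it can be induced in other tissues by overnutrition.

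Each array held 45018 spots, of which 43379 were no controls, and the spots belonged to 41174 probes. A total of 25097 probes carried a name, for 17305 genes, and the probe with the highest mean signal stands for each gene. Values are log2 of the processed signal after quantile normalization, and a difference is the ob/ob value minus the PPARγ2KO value on that scale. The share of spots well above background was 60.4% to 64.9% on the ob/ob arrays and 57.1% to 60.9% on the PPARγ2KO arrays. A slide carried 1 array of each genotype, and a genotype always had the same position on its slide, so that position and genotype cannot be told apart. Replicate 2 of PPARγ2KO and replicate 1 of ob/ob stood apart in marker genes of other cell types, as given below with those genes. Without PPARγ2KO replicate 2 the comparison rests on 2 arrays of that genotype.

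Both groups carried the markers of islets and also of the surrounding exocrine tissue. Ins2, Gcg, Sst and Ppy, the hormones of the beta, alpha, delta and PP cell, were well above background on all 6 arrays. The acinar cell list, 26 genes of digestive enzymes and their secretion, had a mean level of 16.3 to 16.6 in ob/ob and of 16.5 to 16.9 in PPARγ2KO. Trypsinogen Prss2 lay between 17.99 and 18.07 in ob/ob and between 17.93 and 18.11 in PPARγ2KO, and the carboxypeptidase Cpa1 differed by -0.01. Gp2, the glycoprotein of zymogen granules, lay lower on every ob/ob array, at 14.96, 15.29 and 15.42 against 16.34, 15.73 and 15.83 (difference -0.74, adjusted p 0.112 in limma). Acinar enzymes were thus read on every array, at levels that overlapped between the genotypes. Prss2 and Cpa1 are among the brightest probes, where quantile scaling itself sets the value, so their small differences say little about amounts. Of the acinar list 0 genes were higher and 0 lower at the weaker limit defined below, and its median difference was -0.10. With arrays scaled to their 75th percentile that median was -0.56.

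The genes that the mutations concern are Pparg and Lep. The Pparg probe measured 8.54, 9.77 and 9.61 on ob/ob arrays 1 to 3 and 7.44, 7.27 and 6.60 on PPARγ2KO arrays 1 to 3. Every ob/ob array was above every PPARγ2KO array. The difference of 2.20 (SE 0.35), 4.61-fold, had an adjusted p of 0.0796 in limma with Benjamini-Hochberg adjustment, short of the limit of 0.05. The mean was 8.90 in WT and 6.89 in POKO, the other genotype that lacks PPARγ2. Which isoforms the probe reads is not known here. Lep, a gene of fat cells, was well above background on 0 of the 6 arrays, and its probe does not check the ob/ob label. Lepr, the leptin receptor, was above background on 0 ob/ob arrays and on 1 PPARγ2KO array.

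At an adjusted p of at most 0.05 with a change of at least 2-fold, 1 probe was higher in ob/ob (0.00243% of the probes tested) and 1 was lower (0.00243%). The probe that was lower belongs to Gper1. The probe that was higher, AK020360, has no gene symbol here and was well above background on 0 of the 6 arrays, so no fold is given. A weaker limit, an adjusted p of at most 0.2 with the same 2-fold criterion, tolerates more false calls and is used below only to describe the genes. It held 935 probes higher and 682 lower in ob/ob (57.8% higher), or 490 of the 17305 genes higher (2.83%) and 364 lower (2.1%). A gene list with counts near these shares does not stand out. When arrays were scaled to their 75th percentile the split was 1404 against 627 (69.1% higher). An unadjusted p below 0.05 was found for 1883 genes higher in ob/ob (10.9%) and 2465 lower (14.2%). The median difference over all genes was -0.03, and 7856 genes had a positive one.

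These counts depended on single arrays. The weaker limit held only 11 probes higher and 20 lower without PPARγ2KO replicate 1, 54 and 33 without ob/ob replicate 2, and 107 and 117 without ob/ob replicate 3. It held 1512 and 1287 without PPARγ2KO replicate 3, 1277 and 1182 without ob/ob replicate 1, and 1011 and 592 without PPARγ2KO replicate 2. At the limit of 0.05 the same omissions gave 2 and 8, 9 and 3, 8 and 2, 410 and 362, 420 and 590, and 238 and 56. Leaving out an array of WT or POKO kept the weaker limit between 638 and 1023 probes higher and between 517 and 738 lower.

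**Figure D1:**
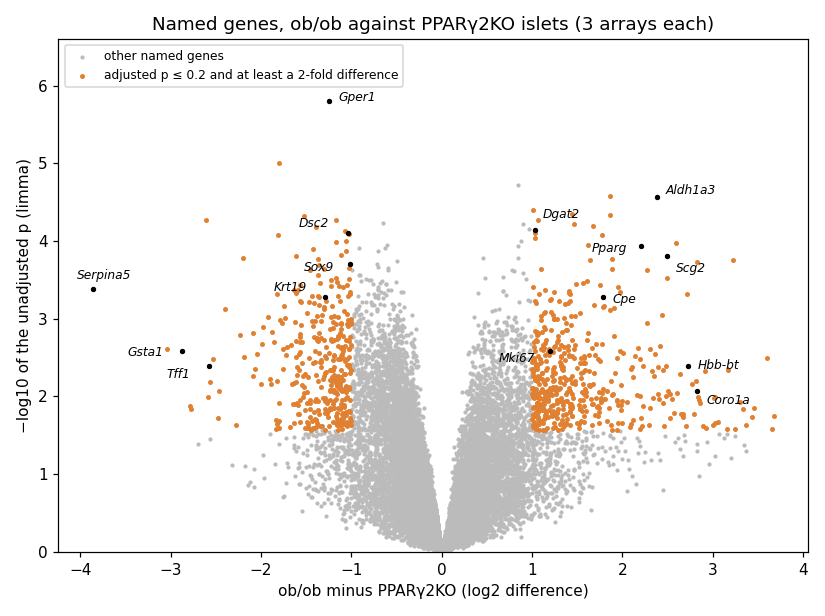
Difference between ob/ob and PPARγ2KO islets (log2, horizontal) against the unadjusted limma p (-log10, vertical) for each named gene, n = 3 arrays per genotype. Points in orange had an adjusted p of at most 0.2 and a change of at least 2-fold, and Gper1, at -1.24, was the only named gene past the limit of 0.05.

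Gper1, the G protein-coupled estrogen receptor of the cell membrane, was the gene that fell. Its log2 signal was 6.03, 5.94 and 5.78 in ob/ob and 7.31, 7.17 and 7.01 in PPARγ2KO, with no overlap. The difference was -1.24 (SE 0.12, 95% interval -1.51 to -0.98), 2.37-fold lower in ob/ob, with an adjusted p of 0.0326 in limma. On the 3 slides the difference was -1.27, -1.23 and -1.23. WT islets lay between the mutants with a mean of 6.73, and POKO islets had 6.17. The gene stayed past both limits in 12 of the 20 alternatives, leaving out any single ob/ob or PPARγ2KO array among them. It missed the limit of 0.05 when WT replicate 1 or 2 or any of the 3 POKO arrays was left out, when only the 6 arrays were fitted, after normexp background correction and with scaling to the 75th percentile.

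The list of steroid hormone and estrogen receptors with their enzymes had 27 genes with a probe, of which 0 were higher and 2 lower at the weaker limit, with a median of 0.12 that was -0.01 without ob/ob replicate 3. Beside Gper1 this was Hsd17b14, a 17β-hydroxysteroid dehydrogenase, at -1.40 (adjusted p 0.0774 in limma), named for passing that limit. The classical estrogen receptor Esr1 was above background on 0 of the 6 arrays. Nr3c1, the glucocorticoid receptor, differed by 0.25 with overlapping arrays. Paqr5, a membrane progestin receptor and one of the 12 largest falls, measured 5.74, 4.99 and 4.79 in ob/ob and 7.76, 7.39 and 6.98 in PPARγ2KO, a difference of -2.20 (SE 0.36, adjusted p 0.0796).

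**Figure D2:**
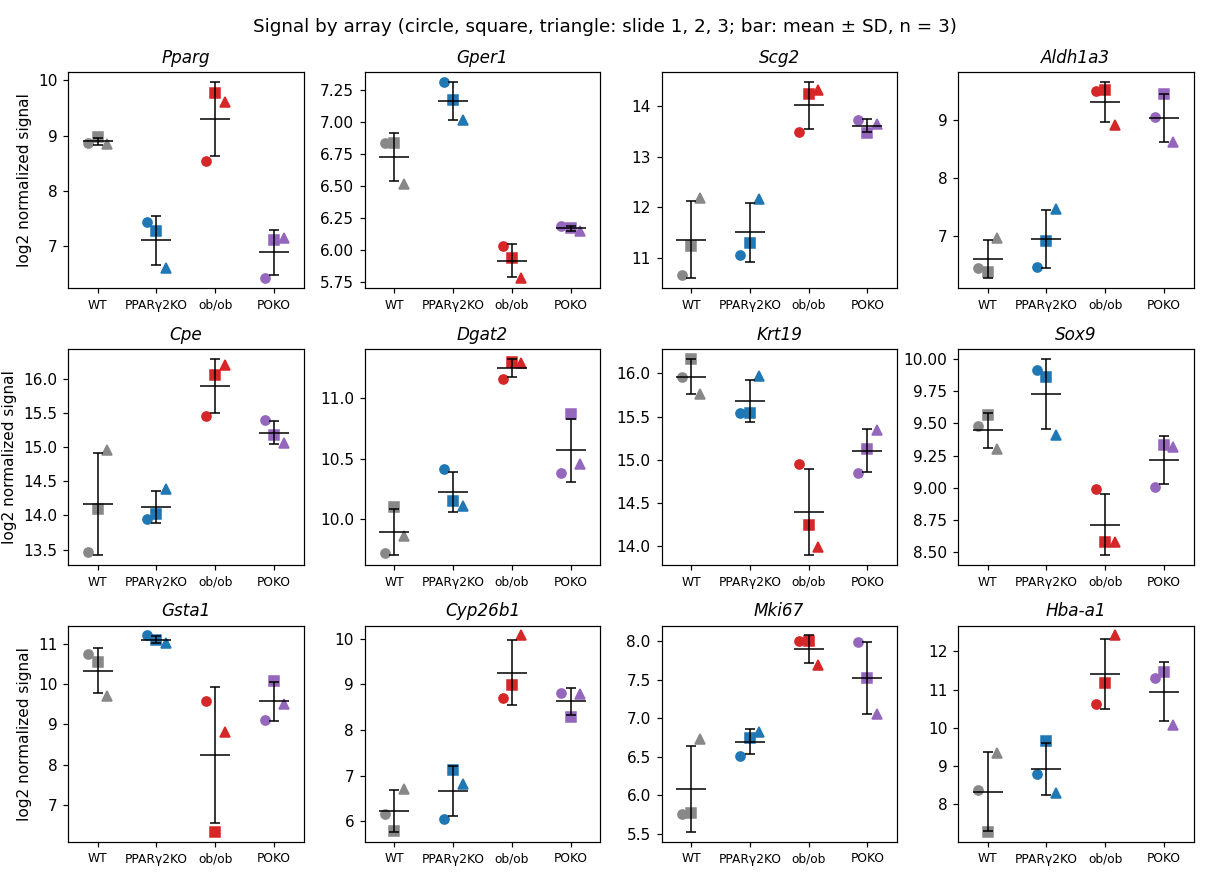
Log2 signal of 12 genes on each array of the 4 genotypes, with the mean and SD of 3 arrays and a marker shape for each slide. Gper1 lies at 5.78 to 6.03 in ob/ob and at 7.01 to 7.31 in PPARγ2KO, and in Pparg, Scg2 and Aldh1a3 the order of these genotypes is the opposite.

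Genes of the secretory granule were higher in ob/ob. Of 31 genes with a probe in the list of insulin granule exocytosis, 10 were higher and 0 lower at the weaker limit, against 2.83% and 2.1% of all genes, and 15 lay higher on every ob/ob array than on every PPARγ2KO array (9.42% of all genes). The median difference was 0.68, beside -0.03 over all genes. Among the 10 genes were the granins Scg2, Scg3, Chga and Chgb, the granule membrane protein Ptprn, and Rab3a, Snap25, Syt4 and Syt7, which dock granules and fuse them with the cell membrane. Without PPARγ2KO replicate 2 the weaker limit held 5 of them (Scg2, Scg3, Chgb, Syt4 and Syt7), with a list median of 0.56, and after normexp correction the median was 0.21.

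Secretogranin II, Scg2, had the largest difference among them. It measured 13.47, 14.23 and 14.32 in ob/ob and 11.07, 11.29 and 12.17 in PPARγ2KO. The difference of 2.49 (SE 0.41), 5.63-fold, had an adjusted p of 0.0796 in limma, and WT and POKO had means of 11.37 and 13.61. Ptprn, a phosphatase-like protein of the granule membrane, measured 11.27, 11.41 and 11.60 against 10.21, 9.09 and 10.85, a difference of 1.38 that fell to 0.90 without PPARγ2KO replicate 2. Granulophilin, Sytl4, and Rab27a, the small GTPase that recruits it to the granule, differed by -0.01 and 0.73, each with overlapping arrays.

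Single genes that turn prohormones into hormones were higher as well. In the list of glucose sensing and insulin processing (28 genes) 4 were higher and 0 lower at the weaker limit, with a median of 0.21. Cpe, the carboxypeptidase that trims insulin, measured 15.46, 16.06 and 16.20 in ob/ob and 13.95, 14.02 and 14.39 in PPARγ2KO, 3.45-fold higher (difference 1.78, SE 0.35, adjusted p 0.0808). Pcsk1, the proinsulin convertase, measured 12.001, 12.83 and 12.46 against 11.04, 10.41 and 11.51, a difference of 1.45 (adjusted p 0.135). No array of PPARγ2KO reached the ob/ob range in either gene. The others were the convertase chaperone Scg5 at 1.35 and Abcc8, the sulfonylurea receptor of the KATP channel, which was 2.14-fold higher. Without PPARγ2KO replicate 2 the weaker limit held Cpe and Scg5 in limma, while Pcsk1 had an adjusted p of 0.263 and Abcc8 a difference of 0.87 (adjusted p 0.346). The glucose transporter Slc2a2 differed by -0.50 and Slc30a8, the zinc transporter of the granule, by 0.24, with overlapping arrays in each.

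Scg2, Chgb and Pcsk1 carry the cAMP response element TGACGTCA, the palindrome bound by CREB, within 250 bases before the start given for them in RefSeq's promoter windows. Their promoters are shown because the search found the element in them and in no other promoter of the granule and processing lists. The windows below, of 30 bases, are written along the strand of each gene with the element in capitals (RefSeq, GRCm38.p6).
Scg2, chr1:79440076-79440105, minus strand: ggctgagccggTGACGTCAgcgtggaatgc
Chgb, chr2:132781559-132781588, plus strand: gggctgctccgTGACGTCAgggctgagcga
Pcsk1, chr13:75089768-75089797, plus strand: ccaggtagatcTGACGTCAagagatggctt
The element begins 68, 72 and 78 bases before that start in Scg2, Chgb and Pcsk1. For Pcsk1 the RefSeq gene record begins further upstream, at position 75089420, so its window lies inside the annotated gene. With either strand searched, the element was found in 2 of 22 promoters of the granule list and 1 of 21 of the processing list. Of all promoters of the same length 508 of 32851 had it (1.55%). Lists with negative medians held it too, in 4 of 64 oxidative phosphorylation promoters (6.25%) and 1 of 23 junction promoters (4.35%). The lists of PPAR targets, interferon-stimulated genes and MHC class I had it in 0 promoters. The element is thus not particular to the genes that were higher, and it describes the letters of these windows only. Chgb, chosen for its window, had means of 16.89 in ob/ob and 15.40 in PPARγ2KO, a difference of 1.48 (adjusted p 0.0951).

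Ion channels and receptors of the beta cell gave a mixed picture. Counts here are at the weaker limit, which held 2.83% of all genes higher and 2.1% lower. The 1 lower gene of each list is near that share. Of 45 ion channel genes 3 were higher (Abcc8, the potassium channel Kcnc1 at 1.74 and the cation channel Trpm2 at 1.07) and 1 was lower (the potassium channel Kcnj12 at -1.99), with a median of 0.33. Kcnj11, the pore of the KATP channel, differed by 0.12. Kcnq1, another potassium channel, had a mean of 10.05 ± 0.07 (SD, n = 3) in ob/ob and measured 11.06, 10.83 and 10.60 in PPARγ2KO, a difference of -0.78 (adjusted p 0.0802). Of 33 islet G protein-coupled receptor genes 2 were higher and 1 lower, with a median of 0.20 that turned to -0.03 without PPARγ2KO replicate 2. Adra2a, the α2A-adrenoceptor that restrains insulin release, measured 10.96, 11.89 and 11.61 against 9.38, 9.65 and 9.84, 3.63-fold higher (difference 1.86, SE 0.38, adjusted p 0.0827). The others were the short-chain fatty acid receptor Ffar2 at 1.13 and, lower, the cholecystokinin receptor Cckar at -1.37. Glp1r and Gpr119, receptors for gut signals, differed by 0.27 and 0.37 with overlapping arrays, and Ffar1, read on 2 ob/ob arrays and 1 PPARγ2KO array, by 0.31.

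Few markers of the endocrine cell types passed these limits. Ins1 measured 18.42, 18.62 and 18.58 in ob/ob and 18.11, 17.90 and 18.28 in PPARγ2KO, a difference of 0.44 (SE 0.28, adjusted p 0.426). Ins2 read 18.95 on all ob/ob arrays and 18.90, 18.90 and 18.95 in PPARγ2KO, at the top ranks of the arrays, where quantile scaling itself sets the value, so no difference could be read for it. Of the 18 beta cell markers 0 were higher and 0 lower at the weaker limit, with a median of 0.25 that turned to -0.13 without PPARγ2KO replicate 2. Of 13 alpha cell markers 1 was higher, Gc, the vitamin D-binding protein, at 11.90, 12.80 and 12.98 against 10.48, 10.25 and 11.02 (difference 1.98, SE 0.37, adjusted p 0.0802). Glucagon itself, Gcg, differed by 0.15. The list's median of 0.15 was -0.02 with scaling to the 75th percentile. The delta cell list (8 genes, median -0.10, and 0.11 with array weights) had only Pcsk1 past the weaker limit, and the PP cell list (6 genes, median 0.16) had none in either direction. The arrays of Ins1 and Gcg did not overlap, higher in ob/ob. In Gcg, also a very bright probe, the lowest ob/ob array (17.72) barely exceeded the highest PPARγ2KO array (17.70). Ins1 also stood among the top ranks, where the scaling sets the value, so its order says little about amounts. Sst, Ppy and Pyy differed by -0.11, 0.14 and 0.40, each with overlapping arrays. In bulk RNA fewer cells of a type and less RNA per cell cannot be told apart.

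Transcription factors of beta cell identity (27 genes) had a median of 0.38. On every ob/ob array 9 genes were higher than on any PPARγ2KO array (9.42% of all genes) and 1 was lower (15.7%). At the weaker limit Pax6 was higher, at 1.33, and Hnf4a was lower. Hnf4a alone passed it without PPARγ2KO replicate 2, where the median was 0.23. Hnf4a, a nuclear receptor of liver, gut and islet, measured 6.43, 6.13 and 5.97 in ob/ob and 7.87, 7.47 and 7.09 in PPARγ2KO, 2.46-fold lower (difference -1.30, SE 0.22, adjusted p 0.0802). Nkx6-1, a factor of mature beta cells, measured 11.86, 12.25 and 12.41 against 11.24, 11.32 and 11.37, a difference of 0.86 that missed the 2-fold criterion (adjusted p 0.147). The genotypes do not overlap in either gene. Pdx1 differed by -0.16 and Mafa by 0.75 with overlapping arrays, Mafa with 4.10, 2.48 and 6.35 in PPARγ2KO. Clock genes (21 genes, median 0.32) had none past the weaker limit in either direction, and Arntl, the partner of CLOCK, differed by 0.57 without overlap.

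Aldh1a3, which makes retinoic acid and is known as a marker of beta cells that lose their mature state, was among the largest differences. It measured 9.52, 9.53 and 8.92 in ob/ob and 6.45, 6.91 and 7.46 in PPARγ2KO, 5.21-fold higher (difference 2.38, SE 0.31, adjusted p 0.0774). POKO islets had a mean of 9.04 and WT islets of 6.59. Cyp26b1, which breaks retinoic acid down, measured 8.71, 8.99 and 10.07 against 6.05, 7.11 and 6.81, 6.05-fold higher (difference 2.60, SE 0.41, adjusted p 0.0796). In both genes the lowest ob/ob array was well clear of the highest PPARγ2KO array. The rest of the list of disallowed and dedifferentiation genes, which adult beta cells normally keep low or express only early, had more genes lower than higher. Of 25 genes 1 was higher (Aldh1a3) and 3 were lower (Sox9, the glutathione transferase Mgst1 at -1.14 and the chemokine Cxcl12 at -2.01), with a median of -0.47. Ldha and Slc16a1, which beta cells keep low, differed by -0.47 and -0.59 with overlapping arrays. Without ob/ob replicate 1 the number lower was 6 (657 of all 17305 genes, in place of 364). Without PPARγ2KO replicate 2 it was 1 (Cxcl12), with 2 higher.

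Proliferation genes differed in single members. Mki67, made only by dividing cells, had a mean of 7.89 ± 0.18 (SD, n = 3) in ob/ob, the lowest array at 7.68, and measured 6.51, 6.74 and 6.82 in PPARγ2KO, 2.30-fold higher (difference 1.20, SE 0.30, adjusted p 0.0985). Of 60 genes of the mitotic cell cycle 3 were higher (Mki67, the kinesin Kif23 at 1.00 and the inhibitor Cdkn2c at 1.06) and 1 was lower (Cdk6 at -1.19). Of all genes 2.83% were higher and 2.1% lower at this limit. The median of 0.19 stood beside 16 genes higher on every ob/ob array (9.42% of all genes) and 4 lower (15.7%). Top2a differed by 0.69 without overlap, Ccnb1 by 0.15 with overlap. Cdkn1b, the inhibitor p27 of the cell cycle, was also higher, at 9.06, 9.36 and 9.73 against 8.83, 8.60 and 8.43 (difference 0.76, adjusted p 0.0937). Since lymphocyte genes also differed between these arrays, and the dividing cells could be of any type, their part in Mki67 was not tested. Without PPARγ2KO replicate 2 the difference in Mki67 was 1.22.

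Genes known from islet expansion in pregnancy and obesity (23 genes) had a median of 0.35, with 5 higher and 1 lower at the weaker limit. Tnfrsf11b, osteoprotegerin, which promotes beta cell replication, measured 8.26, 8.63 and 9.32 in ob/ob and 6.62, 7.30 and 6.96 in PPARγ2KO, 3.43-fold higher (difference 1.78, SE 0.27, adjusted p 0.0774). The other 4 were Gbp8 at 1.75, the islet peptide Cartpt at 1.68, Chgb and Ffar2, and the muscle protein Neb was lower at -1.14. Prlr, the prolactin receptor, differed by 0.90 with overlapping arrays. Tph1, which makes islet serotonin in pregnancy, was above background on 1 ob/ob array only.

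Signalling below the leptin receptor (18 genes) had a median of 0.33, with 1 gene higher, Cartpt, and 0 lower. Socs3, the feedback inhibitor that leptin and other cytokines induce, was higher on each ob/ob array, at 12.86, 13.05 and 13.11 against 11.85, 11.74 and 12.70 (difference 0.91, adjusted p 0.133). Stat5a, the factor below the prolactin and growth hormone receptors, measured 8.27, 8.28 and 8.39 against 7.94 to 8.004 in PPARγ2KO, a small difference of 0.35 (SE 0.07, adjusted p 0.0876). Insulin and IGF signalling (44 genes, median 0.09) had the binding protein Igfbp3 higher, at 1.44, and Igf1 lower, at -1.11. The list was thus near the shares of all genes, 2.83% higher and 2.1% lower. Its smallest p was that of Rps6kb1, the S6 kinase, at 6.57, 6.57 and 6.40 against 7.23, 7.21 and 6.88 (difference -0.59, adjusted p 0.0802), and of its further probes above background 1 differed by -0.38 and 1 by 0.05. The insulin receptor Insr differed by 0.03 and Igf2 by 0.46, with overlapping arrays.

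Lymphocyte genes were high in ob/ob and low in 2 of the 3 PPARγ2KO arrays. The mean level of 22 B cell genes was 5.84 to 7.01 in ob/ob and 3.06, 6.76 and 3.65 on PPARγ2KO arrays 1 to 3, beside 3.02 to 3.49 in WT and 5.58 to 6.80 in POKO. Ms4a1, which encodes CD20, measured 9.16, 8.61 and 6.55 in ob/ob against 2.25, 8.70 and 3.76 in PPARγ2KO. Replicate 2 of PPARγ2KO thus had B cell genes at the level of ob/ob. With it, 3 of the 22 genes (Cd79b, Blk and Fcrla) were higher and 0 lower at the weaker limit, with a median of 1.97. Without it 16 were higher (3.29% of all genes) and 0 lower (1.49%), with a median of 2.93, and Ms4a1 differed by 5.10 (adjusted p 0.0671 in limma) in place of 3.20 (adjusted p 0.283).

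T cell genes had the same arrangement of arrays. The mean level of 27 genes was 5.48 to 6.99 in ob/ob and 3.75 to 5.84 in PPARγ2KO, the highest again in replicate 2. Of these genes 9 were higher and 0 lower with all arrays (among them Cd2, Cd3g, Cd5, Lck, Lat, Bcl11b, Il7r and Ccr7), with a median of 1.59, and 14 were higher without PPARγ2KO replicate 2, with a median of 2.21. Cd8a measured 5.51, 6.28 and 7.74 against 2.45, 6.55 and 2.44. Not every T cell gene went with them: Cd3e measured 6.09, 6.65 and 7.46 in ob/ob and 9.02, 8.45 and 6.44 in PPARγ2KO (difference -1.24, adjusted p 0.283), and Cd4 differed by -0.26. Cytotoxic lymphocyte genes (22 genes, 9 of them below background on every array of both genotypes) had a median of 0.23. Only the chemokine Ccl5 was higher, against 8 genes without PPARγ2KO replicate 2, where the median was 0.45. Granzyme B, Gzmb, measured 6.65, 5.87 and 7.47 in ob/ob and 1.42, 6.96 and 1.86 in PPARγ2KO, and perforin, Prf1, differed by 1.16 with PPARγ2KO replicate 2 again highest in its group, at 5.27. The natural killer cell receptor Ncr1 was not above background on any of the 6 arrays.

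**Figure D3:**
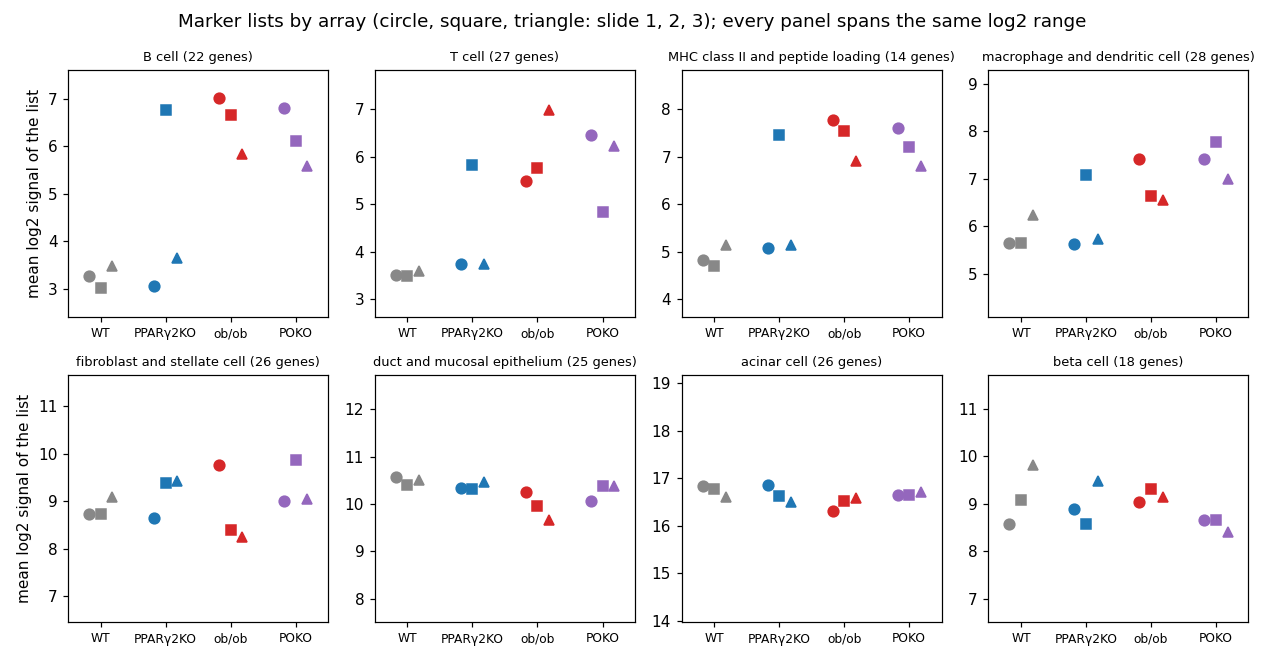
Mean log2 level of the genes of 8 marker lists on each array of the 4 genotypes, with the same log2 span in every panel. PPARγ2KO replicate 2 lies with ob/ob for B cell genes (6.76, against 3.06 and 3.65 on the other PPARγ2KO arrays), and ob/ob replicate 1 lies apart for fibroblast and stellate cell genes (9.76, against 8.25 and 8.40).

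Antigen-presenting genes followed the lymphocyte genes. For the 14 genes of MHC class II and peptide loading the mean level was 6.92 to 7.78 in ob/ob and 5.08, 7.47 and 5.15 on the PPARγ2KO arrays. At the weaker limit 4 were higher with all arrays (Cd74, H2-Aa, H2-Ob and Ctss; median 1.67) and 11 without PPARγ2KO replicate 2 (median 2.65), with 0 lower in both. The invariant chain Cd74 measured 12.72, 12.63 and 12.09 in ob/ob and 9.72, 12.14 and 9.60 in PPARγ2KO, where replicate 2 again exceeded the lowest ob/ob array. H2-Aa and H2-Ab1, chains of the class II molecules, differed by 1.88 and 1.67 with all arrays and by 2.85 and 2.57 without that replicate.

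Among 28 macrophage and dendritic cell genes 4 were higher and 0 lower with all arrays (median 0.68) and 13 were higher without PPARγ2KO replicate 2 (median 1.09). The mean level of the list was 6.56 to 7.43 in ob/ob and 5.62 to 7.09 in PPARγ2KO. C1qa, a complement protein of tissue macrophages, did not share the pattern of replicate 2: it measured 10.19, 10.27 and 10.27 against 8.72, 9.10 and 8.80, 2.59-fold higher (difference 1.37, SE 0.31, adjusted p 0.0933). The others were lysozyme Lyz1 at 1.94, the protease Ctss at 1.42 and the lysosomal protein Laptm5 at 2.42. The macrophage receptors Adgre1 and Csf1r differed by 0.19 and 0.58 with overlapping arrays. A dimmer Csf1r probe, above background on every array of both genotypes, differed by 1.03 without overlap (adjusted p 0.145 in limma). Of 46 chemokine and chemokine receptor genes 4 were higher (Ccl5, Ccl28, Ccr7 and Cxcr3) and 1 was lower (Cxcl12), with a median of 0.13 that was -0.03 without PPARγ2KO replicate 1, and without PPARγ2KO replicate 2 it was 12 and 1, with a median of 0.42. Ccl5 measured 12.71, 12.42 and 12.92 against 10.39, 11.70 and 11.36, and Ccl28, a chemokine of mucosal epithelia, 6.14, 6.67 and 6.14 against 4.61, 4.61 and 5.45. The organizers of lymphoid tissue did not separate the groups, with Ccl19 at 0.72 and Cxcl13 at 0.54 and the highest value of each on PPARγ2KO replicate 2.

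Interferon-stimulated genes, which nearly any cell can express, were higher in ob/ob with and without PPARγ2KO replicate 2. Of 36 genes 7 were higher and 0 lower at the weaker limit, and the median was 0.67. On every ob/ob array 16 lay higher than on every PPARγ2KO array (9.42% of all genes). Without PPARγ2KO replicate 2 the weaker limit held 10 higher and 0 lower, with a median of 0.64. Ifit2, an antiviral effector, measured 7.48, 7.32 and 8.001 in ob/ob and 5.54, 6.25 and 6.56 in PPARγ2KO, 2.79-fold higher (difference 1.48, SE 0.27, adjusted p 0.0802). The slides differed for this list, with a median difference of 1.45, 0.62 and 0.03 on slides 1, 2 and 3. Isg15 and Irf7 differed by 0.30 and 0.65 with overlapping arrays.

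The interferon-stimulated response element, searched as GAAA, any 2 bases and GAAA on either strand in the 250 bases before the start, was present in 16 of 31 promoters of this list (51.6%), against 978 of 32851 promoters (2.98%). The list is defined by the response to interferon, so the share describes the list and not these arrays. Windows from genes past the weaker limit, chosen for their element, are written along the gene's strand, with the element in capitals (RefSeq, GRCm38.p6).
Igtp, chr11:58199512-58199541, plus strand: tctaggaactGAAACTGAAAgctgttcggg
Ifit1, chr19:34640794-34640823, plus strand: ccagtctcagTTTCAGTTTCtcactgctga
Igtp has the element 34 bases before its start, and Ifit1 has it 85 bases before, on the opposite strand. Igtp, an interferon-induced GTPase, differed by 1.14 (adjusted p 0.0997) and Ifit1 by 1.13 (adjusted p 0.0951). Isg15, for which the search also found the element, differed by 0.30.

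Genes of MHC class I and the immunoproteasome (24 genes) shifted together by less than 2-fold. Each of the 24 differences was positive, between 0.02 and 1.03, with a median of 0.53. An unadjusted limma p below 0.05 was found for 13 higher (10.9% of all genes) and 0 lower (14.2%). Only Psmb9, a subunit of the immunoproteasome, passed the weaker limit. The mean level was 11.79 to 11.82 in ob/ob and 11.01 to 11.55 in PPARγ2KO. Tapbpl, which edits peptides on class I molecules, measured 10.42, 10.54 and 10.84 against 9.98, 9.85 and 10.22 (difference 0.58, adjusted p 0.0935). The peptide transporter Tap1 differed by 0.88, H2-K1 by 0.41 and B2m by 0.13, each with overlapping arrays.

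Endothelial genes (22 genes) had a median of 0.46, with 20 differences above 0. At the weaker limit 2 were higher (Pecam1 at 1.23 and Icam2 at 1.05) and 0 lower. The mean level was 9.46 to 9.75 in ob/ob and 8.74 to 9.53 in PPARγ2KO. Cdh5, the cadherin of endothelial junctions, measured 10.49, 10.20 and 10.50 against 9.46, 9.97 and 9.67, a difference of 0.69 without overlap, and Kdr differed by 0.36. Rgs5, a marker of pericytes, measured 9.38, 9.85 and 10.11 against 8.27, 8.61 and 8.73 (difference 1.24, SE 0.23, adjusted p 0.0802).

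Rgs5 stood on the list of fibroblast and stellate cells, of whose 26 genes 5 had a positive difference. The mean level of the 26 genes was 9.76, 8.40 and 8.25 on ob/ob arrays 1 to 3 and 8.65 to 9.43 in PPARγ2KO. Col1a1, the fibrillar collagen, measured 12.59, 9.98 and 9.73 in ob/ob and 10.97, 11.47 and 12.06 in PPARγ2KO. Replicate 1 of ob/ob was thus above all PPARγ2KO arrays and the other two below them. With all arrays 1 gene was higher, Rgs5, and 0 were lower, with a median of -0.41. Rgs5 and Thy1 were higher without PPARγ2KO replicate 2. Without ob/ob replicate 1 the weaker limit held 12 lower, with a median of -0.92, and the differences of Col1a1 and Col3a1 were -1.64 and -1.45. Over all 17305 genes the same omission raised the number lower from 364 to 657 and the number higher from 490 to 691.

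Globin genes were higher in ob/ob. Hba-a1, α-globin, measured 10.62, 11.18 and 12.42 in ob/ob and 8.80, 9.65 and 8.30 in PPARγ2KO (difference 2.49, SE 0.66, adjusted p 0.107), and Hbb-bt, β-globin, 11.66, 12.83 and 14.09 against 10.05, 10.94 and 9.40 (difference 2.73, SE 0.72, adjusted p 0.107). Probes of the globin genes may read more than one of their near-identical copies. The erythroid list of 11 genes had only Hba-a1 past the weaker limit and a median of -0.27, and 5 of its genes were below background on every array of both genotypes. Alas2, the erythroid enzyme of heme synthesis, measured 4.56, 5.45 and 6.55 against 3.27, 4.62 and 2.98, and was above background on 3 and 1 arrays. Of the 11 genes 3 had a positive difference. When dim probes were dropped, the erythroid median was 0.96. That filter keeps a gene that is bright in a single genotype, even if it is dim in the others. It can therefore favour genes that are high in one group, and this median does not show a rise of the list. Of 15 neuron and Schwann cell genes, with a median of 0.23, 1 was higher, Dbh, which makes noradrenaline, at 1.12.

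Duct and mucosal epithelium genes were lower in ob/ob. Of 25 genes 5 were lower (Krt19, Krt20, Sox9, Tff1 and Tff2), 1 was higher (Pigr, which carries antibodies across epithelia, at 1.62) and 9 lay below PPARγ2KO on every array (15.7% of all genes), with a median of -0.39. Krt19, the keratin of duct cells, measured 14.95, 14.24 and 13.99 in ob/ob and 15.54, 15.54 and 15.97 in PPARγ2KO, 2.44-fold lower (difference -1.29, SE 0.25, adjusted p 0.0802). Sox9, the transcription factor of duct cells, measured 8.99, 8.58 and 8.57 against 9.91, 9.86 and 9.41 (difference -1.02, SE 0.17, adjusted p 0.0802). Tff1, a trefoil peptide of mucus, measured 5.17, 4.67 and 4.11 against 6.46, 7.06 and 8.15 (difference -2.57, SE 0.68, adjusted p 0.108). The chloride channel Cftr differed by -0.31 with overlapping arrays. The mean level of the list was 9.66 to 10.3 in ob/ob and 10.3 to 10.5 in PPARγ2KO. Among the 10 genes of the Reg family and trefoil factors 3 were lower (Tff1, Tff2 and Reg3g, an antibacterial lectin, at -1.01) and 0 higher, with a median of -0.27. Reg1 and Reg2 differed by 0.15 and 0.12, and Reg1 turned to -0.42 with scaling to the 75th percentile.

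Tight junction and desmosome genes were lower as well. Of 38 genes 4 were lower and 0 higher at the weaker limit, 19 lay below PPARγ2KO on every array (15.7% of all genes) and 1 above (9.42%), and the median was -0.45. There were 5 lower and 2 higher (Cldn5 and Jam2) at the weaker limit without PPARγ2KO replicate 2. Dsc2, a desmosomal cadherin, measured 6.86, 6.76 and 6.87 in ob/ob and 8.06, 7.79 and 7.76 in PPARγ2KO, 2.06-fold lower (difference -1.04, SE 0.16, adjusted p 0.0774). The others were the claudins Cldn6 at -1.67 and Cldn8 at -1.24 and the desmosomal protein Perp at -1.02. Desmoplakin, Dsp, measured 10.26, 10.29 and 10.31 against 10.93, 10.46 and 10.73, a difference of -0.42 without overlap. Cldn4 and the junction scaffold Tjp1 differed by -0.39 and -0.25 with overlapping arrays. A dimmer Tjp1 probe, above background on 1 ob/ob array only, differed by -1.07 without overlap (adjusted p 0.141 in limma). Many of these genes, though not all, belong to epithelia, and the duct list above moved in the same direction on the same arrays. The part of duct cells in their levels was not tested.

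Glutathione and antioxidant genes (42 genes) had a median of -0.31, with 5 lower at the weaker limit (Gsta3 at -1.29, Gsta4 at -1.35, Mgst1 at -1.14, Gpx8 at -1.19 and heme oxygenase Hmox1 at -1.12) and 1 higher (Gpx3, the plasma glutathione peroxidase, at 1.14). The weaker limit held 0 lower and 0 higher in limma without PPARγ2KO replicate 2, with a median of -0.21. Gsta1 and Gsta2, glutathione transferases of the α class, were among the largest falls. Gsta1 measured 9.57, 6.33 and 8.80 in ob/ob and 11.21, 11.09 and 11.02 in PPARγ2KO (difference -2.87, SE 0.71, adjusted p 0.0985), and Gsta2 7.94, 4.50 and 6.95 against 9.65, 9.51 and 9.35 (difference -3.04, SE 0.74, adjusted p 0.0977). The ob/ob arrays were widely spread, with replicate 2 lowest in both genes. These paralogs are nearly identical, and their probes may share signal. Prdx1, a peroxiredoxin, measured 12.68, 12.21 and 12.22 against 12.97, 12.89 and 12.81 (difference -0.52, adjusted p 0.0951). Catalase, Cat, differed by -0.99 without overlap, and Gpx1 and the mitochondrial Sod2 by -0.08 and 0.33.

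Oxidative phosphorylation genes differed little and mostly in one direction. Of 76 genes 0 passed the weaker limit, 29 had an unadjusted p below 0.05 with lower levels in ob/ob (14.2% of all genes) and 2 with higher levels (10.9%), and the median was -0.16. With scaling to the 75th percentile it was -0.42, while the median of all probes was -0.10 in place of -0.04. Without PPARγ2KO replicate 2 the list median was -0.099. The mean level of the list was 12.092 to 12.14 in ob/ob, above WT (12.048 to 12.085) and POKO (12.034 to 12.042). PPARγ2KO stood above all of them, at 12.186 to 12.394, the highest in replicate 2. Cyc1, cytochrome c1, measured 12.66, 12.58 and 12.38 against 12.95, 12.99 and 12.98 (difference -0.43, SE 0.10, adjusted p 0.0931). Ndufab1, the acyl carrier of complex I, differed by -0.25 without overlap. Sdha, of complex II, lay higher on every ob/ob array, by 0.51, and Cox4i1 differed by -0.05.

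Cholesterol synthesis genes (25 genes) had 12 with an unadjusted p below 0.05, all lower in ob/ob (14.2% of all genes), and a median of -0.37. At the weaker limit 1 gene was lower and 0 were higher. Hsd17b7, which missed the 2-fold criterion, measured 7.86, 7.55 and 7.31 in ob/ob and 8.53, 8.71 and 8.35 in PPARγ2KO (difference -0.95, SE 0.19, adjusted p 0.0822). Hmgcs1, an early enzyme, differed by -0.64 without overlap. The WT arrays, with a mean level of 9.64 to 9.81 for the list, lay above both mutants, at 8.88 to 9.20 in ob/ob and 9.32 to 9.56 in PPARγ2KO.

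Lipid storage gave single genes. In the list of fatty acid and triglyceride synthesis (24 genes, median -0.19) Dgat2 and Thrsp were higher and the desaturase Fads3 was lower at -1.49. Dgat2, which closes triglyceride synthesis, measured 11.16, 11.31 and 11.29 in ob/ob and 10.42, 10.15 and 10.11 in PPARγ2KO, 2.04-fold higher (difference 1.03, SE 0.15, adjusted p 0.0774). Thrsp, a lipogenic regulator, was higher by 1.20. The main enzymes of fatty acid synthesis did not follow: Fasn, Acaca and Scd1 differed by -0.30, -0.29 and -0.92, with overlapping arrays. Fatty acid oxidation (33 genes, median -0.04) had the thioesterase Acot5 lower, at -1.35. Slc25a20, the carnitine carrier of mitochondria, measured 8.881, 8.996 and 8.993 against 7.94, 8.13 and 8.27, a difference of 0.84 just short of 2-fold (SE 0.13, adjusted p 0.0796). Cpt1a, Acadm and Hadh differed by 0.22, -0.04 and 0.53, with overlapping arrays.

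Genes known as targets of PPARs had few members past the weaker limit. Of 50 genes 0 were higher and 2 lower at the weaker limit (the cytochromes Cyp4a10 at -1.01 and Cyp27a1 at -1.84), with a median of -0.24, and by an unadjusted p below 0.05 it was 6 higher and 10 lower, beside 10.9% and 14.2% of all genes. The fatty acid carrier Fabp4 measured 11.83, 11.71 and 11.63 in ob/ob and 10.62, 10.85 and 11.15 in PPARγ2KO, a difference of 0.85 without overlap (adjusted p 0.233). Angptl4, Cd36 and the droplet coat Plin2 differed by 0.24, 0.32 and -0.50, with overlapping arrays. Dbi, the acyl-CoA binding protein, measured 12.82, 12.35 and 12.14 against 13.43, 13.14 and 12.99 (difference -0.75, adjusted p 0.124). A strict form of the PPAR response element, AGGTCA, any 1 base and AGGTCA on either strand, was found in the 250 bases before the start of 0 of 37 of these genes and of 11 of 32851 promoters (0.0335%). This says only that the repeat in its strict spelling is not in these windows. Among 20 PPAR and RXR receptors and partners, with a median of 0.05 that was -0.02 with scaling to the 75th percentile, Pparg and Cebpd, at 1.14, were higher and 0 lower. Ppara differed by 0.05, and the Ppard probe was not above background on any of the 6 arrays. Adipocyte markers (22 genes, median -0.11) had Dgat2 and Thrsp higher and the uncoupling protein Ucp1 lower, at -1.65. Adipoq and Plin1, which define fat cells, were not above background on any of the 6 arrays.

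Protein folding and the ER stress response (34 genes) had 29 differences above 0, a median of 0.40 and 15 genes with an unadjusted p below 0.05 higher in ob/ob (10.9% of all genes). Ppp1r15a, which restarts translation after stress, was higher at the weaker limit, by 1.13, and 0 were lower. Hsp90b1, a chaperone of the ER, measured 14.62, 14.91 and 15.22 against 13.89, 14.09 and 14.26 (difference 0.83, SE 0.19, adjusted p 0.0933). The best known markers overlapped, with Hspa5 at 0.21, Xbp1 at 0.06 and Ddit3 at 1.09, where the ob/ob arrays spread from 9.86 to 12.21. Without ob/ob replicate 1 the weaker limit held 7 genes, all higher (691 of all 17305 genes, in place of 490). Without PPARγ2KO replicate 2 it held 0 in limma. Apoptosis and survival genes (35 genes, median -0.07) had none past the weaker limit in either direction. Birc3, an inhibitor of apoptosis, measured 9.87, 9.75 and 9.99 against 8.79, 9.02 and 9.10 (difference 0.90, SE 0.13, adjusted p 0.0774), just under 2-fold, while Bcl2, Bcl2l1 and Bax differed by -0.07, -0.48 and -0.32 with overlapping arrays.

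TGF-β, activin and BMP signalling (49 genes, median -0.03) had Inhbb, a subunit of activin B, higher, at 1.24, and the receptor Bmpr1b lower, at -1.62. These counts are near the shares of all genes, 2.83% higher and 2.1% lower. Bmp7 measured 8.82, 8.84 and 9.01 in ob/ob and 9.93, 9.57 and 9.87 in PPARγ2KO (difference -0.90, SE 0.19, adjusted p 0.0863). Smad3, which carries the TGF-β signal, lay lower on every ob/ob array (difference -0.54), and so did Tgfb1 (difference -0.73), with 9.23, 8.18 and 8.62 against 9.57, 9.33 and 9.30. The inhibitory Smad7 differed by 0.19.

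**Figure D4:**
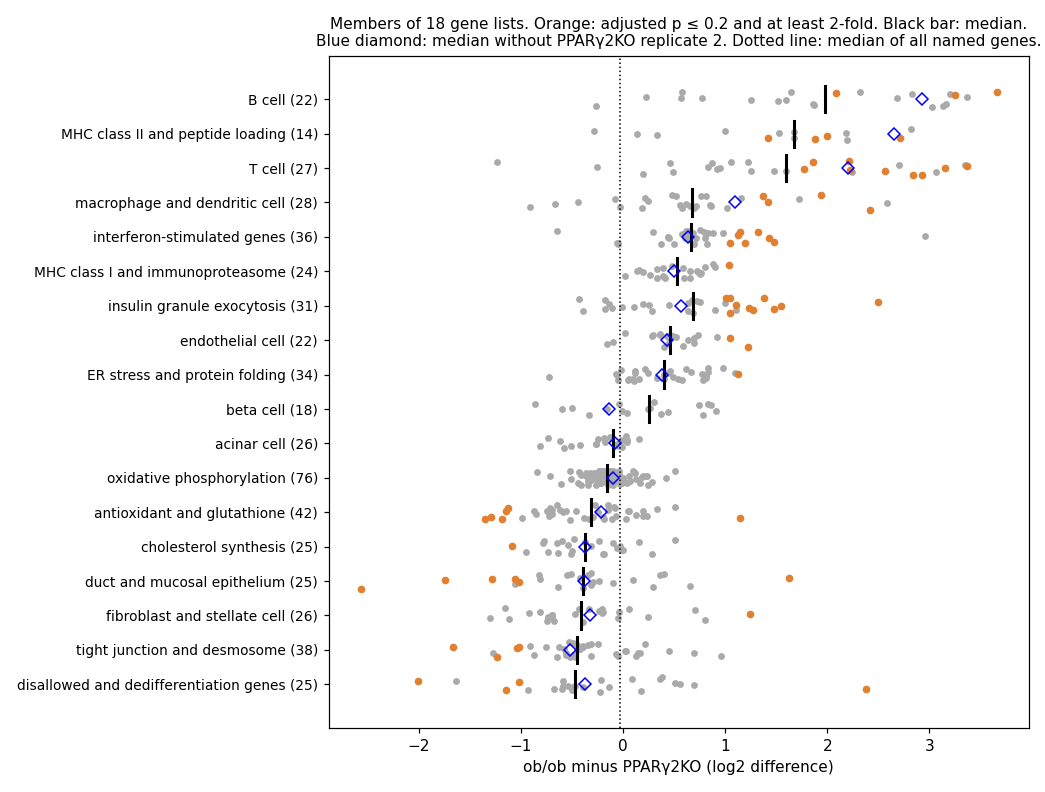
Difference between ob/ob and PPARγ2KO (log2) for each member of 18 gene lists, with the median of each list and, as a blue diamond, its median without PPARγ2KO replicate 2. Of these lists, the B cell and class II medians shift the most when that array is left out (B cell median 1.97 to 2.93), and the junction and duct lists lie below 0 either way.

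The largest rises by the naming rule, among 590 genes that met its filter, were Asb9, 6330403K07Rik, Arhgap4, Itgb7, Lin7a, Coro1a, Arhgap45, Cxcr3, Hbb-bt, Chil6, Sash3 and Cyp26b1. Arhgap4, Itgb7, Coro1a, Arhgap45, Cxcr3 and Sash3 are genes of leukocytes, and in these 6 PPARγ2KO replicate 2 was the highest of its group, as for the actin regulator Coro1a, which measured 11.51, 11.31 and 11.70 in ob/ob and 7.20, 11.09 and 7.74 in PPARγ2KO. The filter itself asks for groups that do not overlap, so a lack of overlap in these genes is no result. Lin7a, a scaffold of polarized membranes and synapses, measured 6.07, 7.39 and 7.79 against 3.98, 4.70 and 4.08 (difference 2.83, SE 0.47, adjusted p 0.0802 in limma). The uncharacterized 6330403K07Rik measured 9.83, 8.64 and 8.83 against 4.91, 6.07 and 6.64, 9.39-fold higher (difference 3.23, adjusted p 0.0796). Chil6, a chitinase-like protein, measured 4.93, 6.16 and 6.00 against 2.48, 3.19 and 3.25 and was above background on 3 and 1 arrays. Asb9, an adaptor of ubiquitin ligases, measured 4.05, 6.01 and 6.71 against 1.09, 3.84 and 1.06, above background on 3 and 1 arrays.

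The largest falls, among 962 genes that met the filter, were Serpina5, Gsta2, Gsta1, Fgfbp1, Tff1, Uts2, Stx19, Clca3a1, Cpa4, 2200002J24Rik, Paqr5 and Rad51b. Serpina5, an inhibitor of serine proteases, measured 3.46, 2.37 and 1.22 in ob/ob, where 1 array was above background, and 6.72, 5.71 and 6.22 in PPARγ2KO, at least 8.82-fold lower in ob/ob (adjusted p 0.0802). Fgfbp1, a carrier of fibroblast growth factors, was not well above background on any ob/ob array and measured 5.77, 6.10 and 4.79 in PPARγ2KO, at least 5.52-fold lower in ob/ob (adjusted p 0.0774). Both bounds set ob/ob arrays below it at the lowest signal that still passes as above background. The vasoactive peptide Uts2 measured 7.26, 6.19 and 5.97 against 7.89, 9.69 and 9.54 (difference -2.56, adjusted p 0.124), and the carboxypeptidase Cpa4 5.53, 4.84 and 3.78 against 6.88, 7.25 and 7.22 (difference -2.40, adjusted p 0.0822). Clca3a1, Rad51b, Stx19 and 2200002J24Rik, with adjusted p values of 0.133, 0.0997, 0.101 and 0.0935 in limma, were above background on 2, 2, 1 and 1 ob/ob arrays. The filter requires all PPARγ2KO arrays to be above it.

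Of all 17305 genes, 3049 were below background on every array of both genotypes. Another 48 were above it on every ob/ob and no PPARγ2KO array, and 2 the other way. The share of spots above background was 60.4% to 64.9% in ob/ob and 57.1% to 60.9% in PPARγ2KO. The part of this difference in the counts was not tested. The 73 further probes above background of the named genes included 38 for genes with an adjusted p of at most 0.2, of which 37 had the sign of the gene's main probe. The exception was 1 of the further probes of Rps6kb1. Where the main probe had a larger adjusted p, a further probe could still separate the groups, as for Csf1r, Tjp1, Fasn and H2-K1.

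The WT and POKO arrays, which do not enter the difference itself, place these genes among the 4 genotypes. Of the 490 genes higher in ob/ob at the weaker limit the WT mean was nearer to PPARγ2KO than to ob/ob in 470 (95.9%), and of the 364 lower genes in 326 (89.6%), beside 73.7% of all genes. The POKO mean was nearer to ob/ob in 338 of the higher genes (69.0%) and in 176 of the lower ones (48.4%), beside 50.4% of all genes. These shares are descriptions without a test, since the members were chosen on the arrays to which WT and POKO are compared. Scg2, Aldh1a3, Cyp26b1 and Mki67 had POKO means of 13.61, 9.04, 8.62 and 7.52, near ob/ob, whereas Pparg, at 6.89, lay with PPARγ2KO.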

How the data were processed

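Per the file headers, Agilent Feature Extraction (version 10.1.1.1 in the submitters' processing notes) had given the deposited processed signal, a background-subtracted intensity. Here it was quantile-normalized over 12 arrays, put on the log2 scale and averaged per probe, after removal of controls and 919 outlier spots. No spot was saturated, and 0 columns were unmatched. The authors' own normalized log2 values served as an alternative. In R 4.3.3, limma 3.58.1 fitted genotype to all arrays, with Benjamini-Hochberg adjustment over 41174 probes, and was tested on simulated data. Array numbers limit the precision.

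Genes were named through RefSeq accessions. The text names genes past the limits, Pparg, Lep, Lepr, the 12 largest rises and falls (unadjusted p below 0.01, no overlap, bright group above background), and preset key genes and the smallest p of 43 lists. Other list members that passed the weaker limit, Chgb, Igtp and Ifit1 among them, were named after their values were seen. Members and lists were chosen with earlier results of these data known. A few genes are not reported here.

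Arrays of a replicate number share a slide. Their deviations correlated at -0.161, 0.024 and -0.322 over 20511 probes, so the numbers do not pair the arrays.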

Additional observations from a re-analysis of the deposited data

How the results depend on the processing

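At the adjusted p of 0.05, main counts of 1 probe higher and 1 lower became 1 and 0 with scaling to the 75th percentile, 2 and 0 after normexp correction of the median signal (offset 50), 107 and 125 among 24298 bright probes, 0 and 0 with only the 6 arrays, and 823 and 742 with array weights. With only the 6 arrays the unadjusted p was below 0.05 for 2465 probes higher and 3497 lower. The replicate block gave 0 and 1, and 907 and 679 at the limit of 0.2, where it moved little, although the numbers do not pair the arrays. The authors' values, kept outlier spots and no fold criterion left 1 and 1. Leaving out single arrays gave 0 to 420 higher and 0 to 590 lower. At the limit of 0.2, the counts of 935 and 682 became 1404 and 627, 120 and 71, 1069 and 675, 5 and 6, and 1960 and 1511 in the order of the first 5 alternatives, and 11 to 1512 and 20 to 1287 without single arrays. The smaller number of probes tested is part of the bright-probe filter, and the cause of the other shifts was not tested. The normexp offset narrows the differences of dim probes by construction: Gper1 went to -0.42, with -1.14 under the 75th percentile.

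Of 172 named genes, 81 had an adjusted p of at most 0.2, and 0 of these changed sign in any of 20 alternatives. These genes were picked for a small p on the same arrays that the alternatives reuse. Their kept signs are therefore no independent support. Prss2 went from 0.04 to -0.47 and Reg1 from 0.15 to -0.42 with scaling to the 75th percentile. Medians of lists near 0 also turned: adipocyte genes to 0.02 among bright probes, fatty acid oxidation to 0.04 when a gene's probes were averaged, and apoptosis to 0.05 without ob/ob replicate 3. The 3 pooled arrays per genotype limit what can be called, and a signal near background sets only a bound.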
